A study of Mus musculus with 2 samples.

Results

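Macrophages enter the gonad early in its formation, and their transcripts can be followed among those of the other gonadal somatic cells by genes that few other cell types use. The 33 genes described here were taken from a list of macrophage and mononuclear phagocyte genes, matched by symbol to the identifiers of the somatic count table, and all 33 were among its 42422 identifiers. The choice rule uses no measured value, although the list was drawn up with earlier results of these data known. They cover the complement C1q subunits (C1qa, C1qb and C1qc), surface receptors and their signalling chains (Csf1r, Cx3cr1, Fcer1g, Tyrobp, Fcgr3, Mrc1, Adgre1, Trem2, Cd14, Ccr2, Lyve1, Itgam and Cd163), lysosomal, secreted and membrane proteins (Ctss, Lyz2, Cd68, Laptm5, Mpeg1, Cybb, Pf4, F13a1, Ms4a6c, Ms4a7, Ly86 and Cd53), cytoskeletal and general leukocyte proteins (Aif1, Lcp1, Coro1a and Ptprc) and 1 transcription factor, PU.1, encoded by Spi1. Of these genes, 24 passed the filter on low counts and were tested, among 15125 genes tested in all.

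Tissue macrophages of the embryo first come from the yolk sac and are later joined by cells that pass through the foetal liver. In the foetal testis they lie close to the growing vessels and take up dying cells and debris. Their survival depends on the receptor CSF1R, which has the ligands CSF1 and IL34. C1q, the recognition part of the first complement component, is made mostly by macrophages in many tissues, and the fractalkine receptor CX3CR1 marks resident and monocyte-derived cells.

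The somatic cells came from E12.5 embryos of Swiss females mated with males that carried the Oct4-eGFP germ cell reporter on a 129svJT2 background, wild type in the labels. Gonads were sorted uncultured, or gonad and mesonephros were cultured first and the mesonephros was then removed. Groups were XX and XY uncultured, XX and XY with the vehicle DMSO at 24 h and at 72 h, and XY with FGFRi (BGJ398, an FGF receptor inhibitor) or MEKi (PD0325901, a MEK1/2 inhibitor) at 24 h and at 72 h, both at 500 nM. Each of the 10 groups had 4 libraries, each made from several pooled gonads. The sort took GFP-negative cells, which removes germ cells and leaves every other cell type, so no gate selected macrophages, and an explant in culture receives no cells from the circulation. In such bulk samples, fewer macrophages and less of a transcript per macrophage cannot be told apart.

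Libraries held 1380707 to 4836550 counts (median 2248854), and values are given as CPM, counts relative to library sizes scaled by TMM. The sex labels were met in all 40 libraries, with Xist at 1090 to 2427 counts in XX and at most 14 in XY. The libraries were sequenced in 2 pools: the uncultured groups, DMSO at 24 h and MEKi at 24 h in the first, FGFRi at 24 h and every 72 h group in the second. MEKi library M2 at 24 h was placed by its own name, since the description of its pool does not list it. At 72 h, XY DMSO library M6 and XX DMSO library F11 stood below the others of their groups for most of the 33 genes, and the 72 h sums, counts and calls were also computed without them. A gene is called here when its Benjamini-Hochberg adjusted p from edgeR's quasi-likelihood test, over all genes tested, was below 0.05 and its fold change was over 1.5.

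Macrophage transcripts were a small part of the somatic RNA, and their level moved with culture and with both inhibitors. Summed over the 33 genes, they made up 165 ± 12.8 CPM (SD, n = 4) in XX and 192 ± 4.82 CPM in XY uncultured cells. After 24 h with DMSO the sum was 81.6 ± 10.8 CPM in XX and 147 ± 45.7 CPM in XY. In XY cells at 24 h it was 68.5 ± 11.1 CPM with MEKi and 68.0 ± 14.02 CPM with FGFRi. All of the MEKi and FGFRi libraries of 24 h, at 53.1 to 84.9 CPM, lay below all XY DMSO libraries, at 86.7 to 189 CPM. The FGFRi libraries were in the second sequencing pool and the DMSO libraries in the first, so inhibitor and pool cannot be told apart there.

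At 72 h, in the second pool, the DMSO groups held the highest sums, with 272 ± 123 CPM in XX and 342 ± 150 CPM in XY, and also the widest spread, at 98.2 to 369 CPM and 156 to 516 CPM. Without M6 and F11 the DMSO sums were 330.2 ± 50.95 CPM (SD, n = 3) in XX and 404 ± 103 CPM in XY. With FGFRi the sum was 128 ± 19.03 CPM (106.7 to 148 CPM) and with MEKi 144 ± 30.3 CPM (110.1 to 176.3 CPM). On this sum the FGFRi libraries lay below all XY DMSO libraries, while the MEKi libraries overlapped with XY DMSO library M6. Between 15.0 and 101 CPM of each 72 h sum was Lyz2, which neutrophils and other myeloid cells also express. Without Lyz2, the XY DMSO libraries stood at 125 to 419 CPM, the FGFRi libraries at 77.2 to 95.2 CPM and the MEKi libraries at 85.2 to 121 CPM. Each inhibitor group then lay wholly below the XY DMSO group, while the inhibitor groups overlapped each other.

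**Figure D1:**
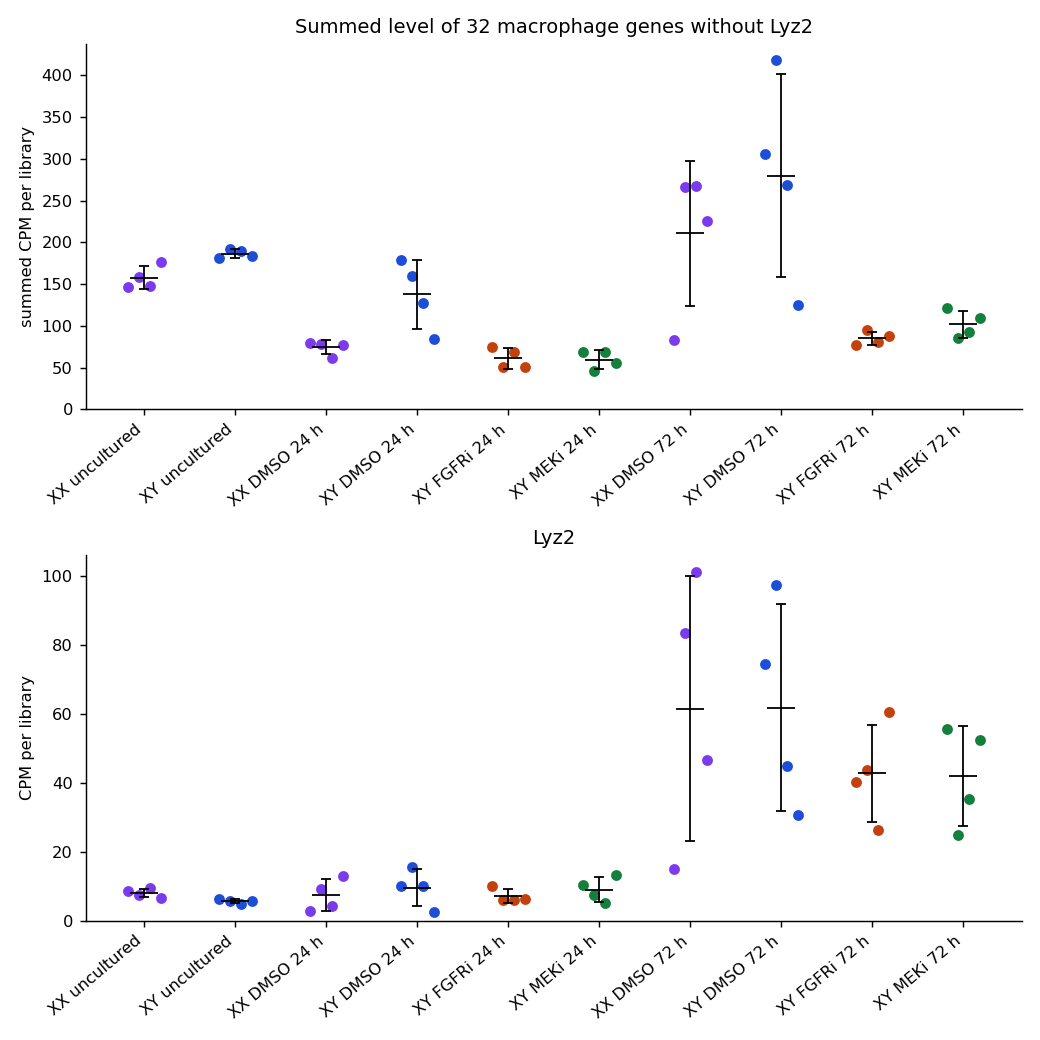
Level in each of the 40 libraries (points), in CPM on a linear axis from 0, of 32 macrophage genes summed without Lyz2 (upper panel) and of Lyz2 (lower panel), with lines and bars for the mean and SD of each of the 10 groups. In the upper panel the 72 h FGFRi libraries (77.2 to 95.2 CPM) and MEKi libraries (85.2 to 121 CPM) lie below the XY DMSO libraries (125 to 419 CPM), and in the lower panel Lyz2 is at most at 15.4 CPM before 72 h.

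**Figure D2:**
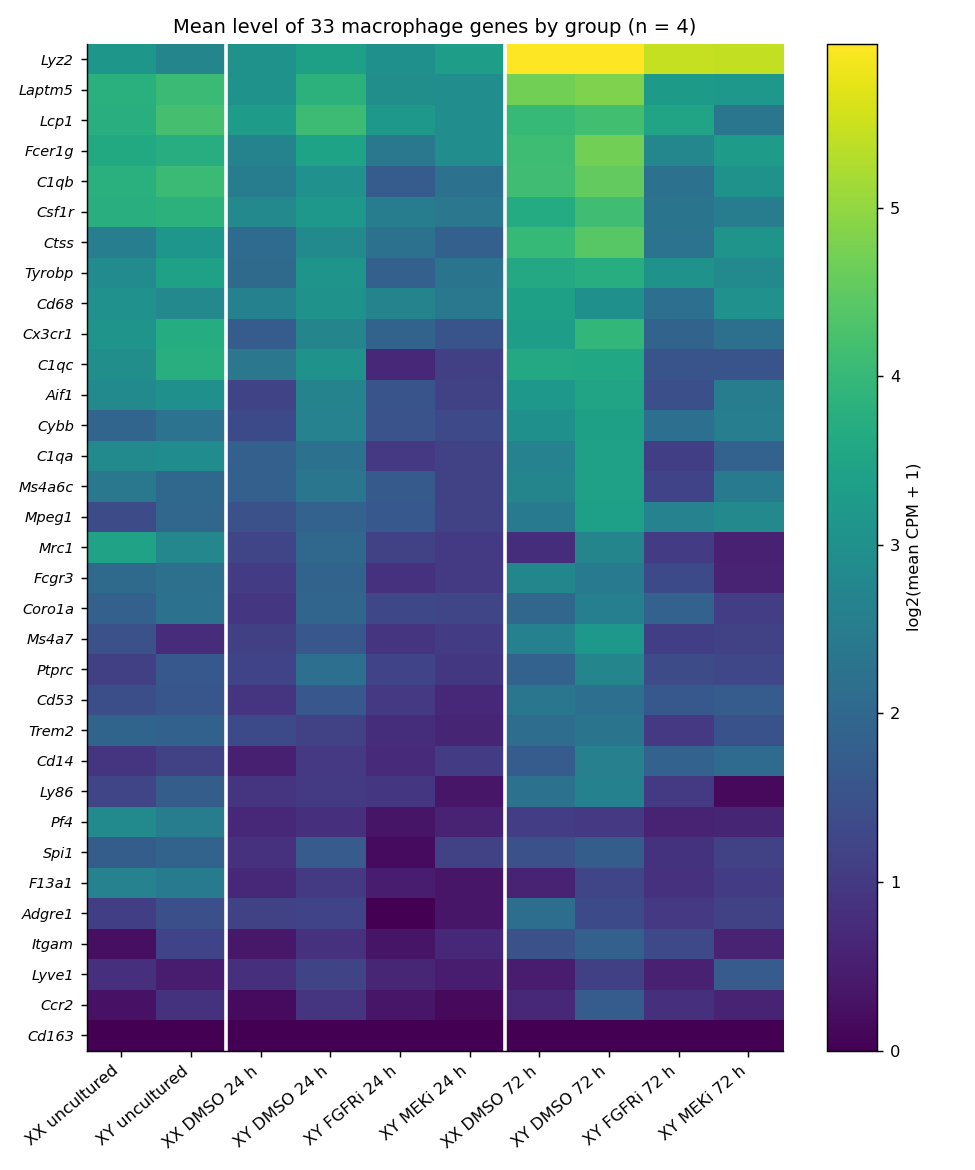
Level of each of the 33 genes (rows) in each of the 10 groups (columns, 4 libraries each) as log2 of the mean CPM plus 1, from dark (0) to bright, with white lines between the uncultured, 24 h and 72 h groups. Lyz2 is high in the 4 groups of 72 h, Pf4 and F13a1 are highest in the uncultured groups, and Cd163, with no count in any of the 40 libraries, is the dark bottom row.

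FGFRi at 72 h was compared with DMSO at 72 h in XY cells to ask which somatic transcripts depend on FGF receptor signalling. Of the 24 tested genes, 11 were called lower and 0 higher, where 0.939% of all genes tested were called lower. They were all 3 C1q genes, the receptors Csf1r and Cx3cr1, the Fc receptor chain Fcer1g, Aif1, Ctss, Laptm5, Ms4a6c and Ms4a7, and in each of the 11 all 4 FGFRi libraries lay below all 4 DMSO libraries (3.65% of all genes tested did so). Ms4a7 would not have passed the filter on low counts without these DMSO libraries, so a lower value was favoured for it. The median log2 fold change of the 24 was -1.68, beside 0.00 over all genes tested, and the group mean of 32 of the 33 genes was lower with FGFRi, Cd163 being at 0 throughout.

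MEKi at 72 h was compared with the same DMSO libraries to ask the same of MEK1/2. Here 14 of 24 were called lower and 0 higher, where 4.19% of all genes tested were called lower. The 14 include Ms4a7, Ptprc, Fcgr3 and Coro1a, which would not have passed the filter without these DMSO libraries, so lower values were favoured for them. Of the 14, 9 were also called with FGFRi (the C1q genes, Csf1r, Cx3cr1, Fcer1g, Ctss, Laptm5 and Ms4a7), a count that the shared DMSO libraries alone can raise. The median was -1.55, and 30 of 33 group means were lower, with Cd68 and Lyve1 slightly above DMSO. In 11 of the 24, all MEKi libraries lay below all DMSO libraries, where 8.24% of all genes tested did so.

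The C1q genes encode the A, B and C chains of one protein and lie side by side on the minus strand of chromosome 4, C1qb at chr4:136606009-136613511, C1qc next to it and C1qa up to position 136626161 (GRCm39). C1qb stood at 21.0, 28.8, 27.9 and 11.4 CPM in the 4 XY DMSO libraries, at 4.03, 5.67, 3.22 and 1.68 CPM with FGFRi and at 10.9, 5.73, 5.34 and 7.55 CPM with MEKi. Both inhibitors left every library below the lowest DMSO library, M6. The log2 fold change was -2.60 with FGFRi (SE 0.372, adjusted p = 2.04e-05) and -1.62 with MEKi (SE 0.335, adjusted p = 0.000793).

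C1qa was at 11.7, 15.9, 7.48 and 3.81 CPM with DMSO, at 0.419 to 1.79 CPM with FGFRi and at 0.539 to 4.74 CPM with MEKi. The FGFRi libraries held 1 to 5 counts each and none reached a DMSO library, while 1 MEKi library, M2, exceeded DMSO library M6. The log2 fold change was -3.01 with FGFRi (SE 0.575, adjusted p = 0.00146) and -1.81 with MEKi (SE 0.5, adjusted p = 0.0123, which became 0.0709 without DMSO library M4). C1qc, at 12.3, 19.4, 7.98 and 4.28 CPM with DMSO, was at 0 to 3.94 CPM with FGFRi and at 1.15 to 3.45 CPM with MEKi, with no overlap in either case. Its log2 fold change was -2.38 with FGFRi (SE 0.536, adjusted p = 0.00786, and 0.0527 without DMSO library M4) and -2.43 with MEKi (SE 0.536, adjusted p = 0.00169). Over the 3 genes together, DMSO libraries held 19.5 to 64.1 CPM and FGFRi libraries 3.77 to 8.95 CPM.

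Csf1r, the receptor on which macrophages depend, was at 17.3, 28.3, 11.97 and 8.57 CPM with DMSO, at 3.46, 8.51, 2.51 and 1.26 CPM with FGFRi, and at 4.74, 4.97, 4.71 and 4.31 CPM with MEKi. The highest FGFRi library, M4, came within a small margin of the lowest DMSO library, and the MEKi libraries were close to each other. The log2 fold change was -2.06 with FGFRi (SE 0.429, adjusted p = 0.0036) and -1.80 with MEKi (SE 0.415, adjusted p = 0.00259). Cx3cr1, the receptor of fractalkine, was at 12.99, 18.9, 18.5 and 7.62 CPM with DMSO, at 1.79 to 4.19 CPM with FGFRi and at 1.62 to 6.50 CPM with MEKi, without overlap. The log2 fold change was -2.40 with FGFRi (SE 0.467, adjusted p = 0.00169) and -1.94 with MEKi (SE 0.441, adjusted p = 0.00225).

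Fcer1g, the signalling chain shared by several Fc receptors, was at 28.6, 38.8, 23.4 and 9.04 CPM with DMSO, at 7.49, 4.05, 5.73 and 5.87 CPM with FGFRi and at 9.95, 6.50, 10.99 and 8.09 CPM with MEKi. All FGFRi libraries were below the DMSO libraries, and 2 of the MEKi libraries were above DMSO library M6. Its log2 fold change was -2.13 with FGFRi (SE 0.342, adjusted p = 0.000102) and -1.48 with MEKi (SE 0.319, adjusted p = 0.00128). Tyrobp, the adaptor that pairs with TREM2 and related receptors, was at 5.24 to 20.4 CPM with DMSO, 4.19 to 12.7 CPM with FGFRi and 2.68 to 8.09 CPM with MEKi, groups that overlapped, and it was called with neither.

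Ctss encodes cathepsin S, a lysosomal protease that processes antigen. It was at 19.7, 33.8, 16.5 and 11.4 CPM with DMSO, at 2.88, 5.27, 3.58 and 3.77 CPM with FGFRi and at 9.01, 9.17, 4.71 and 7.01 CPM with MEKi, so that every treated library lay below every DMSO library. Its log2 fold change was -2.36 with FGFRi (SE 0.372, adjusted p = 8.11e-05) and -1.45 with MEKi (SE 0.340, adjusted p = 0.00313). Laptm5, a lysosomal membrane protein of leukocytes, was at 31.0, 36.3, 28.4 and 12.4 CPM with DMSO, at 6.33 to 9.67 CPM with FGFRi and at 5.35 to 10.2 CPM with MEKi. Neither range reached DMSO library M6, and the log2 fold change was -1.64 with FGFRi (SE 0.325, adjusted p = 0.00201) and -1.76 with MEKi (SE 0.328, adjusted p = 0.000194).

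Ms4a7 and Ms4a6c encode membrane-spanning proteins of myeloid cells. Ms4a7 was at 7.33, 14.9, 6.98 and 2.86 CPM with DMSO, and at most at 1.79 CPM with FGFRi and 2.20 CPM with MEKi, with 1 to 7 counts in each treated library. Its log2 fold change was -2.72 with FGFRi (SE 0.634, adjusted p = 0.0104, and 0.0688 without DMSO library M4) and -2.57 with MEKi (SE 0.616, adjusted p = 0.00401). Ms4a6c was at 4.28 to 14.9 CPM with DMSO, 0 to 2.84 CPM with FGFRi and 2.68 to 6.16 CPM with MEKi, and was called with FGFRi (log2 fold change -2.80, SE 0.600, adjusted p = 0.00477); with MEKi the log2 fold change was -1.18 (SE 0.507, adjusted p = 0.121). Aif1, an actin-binding protein also known as IBA1, was likewise called with FGFRi (-2.47, SE 0.598, adjusted p = 0.0141) at 0 to 3.65 CPM against 7.62 to 13.96 CPM with DMSO, but not without FGFRi library M5 (adjusted p = 0.118). With MEKi, Aif1 was at 3.82 to 6.16 CPM (log2 fold change -1.09, SE 0.517, adjusted p = 0.167).

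**Figure D3:**
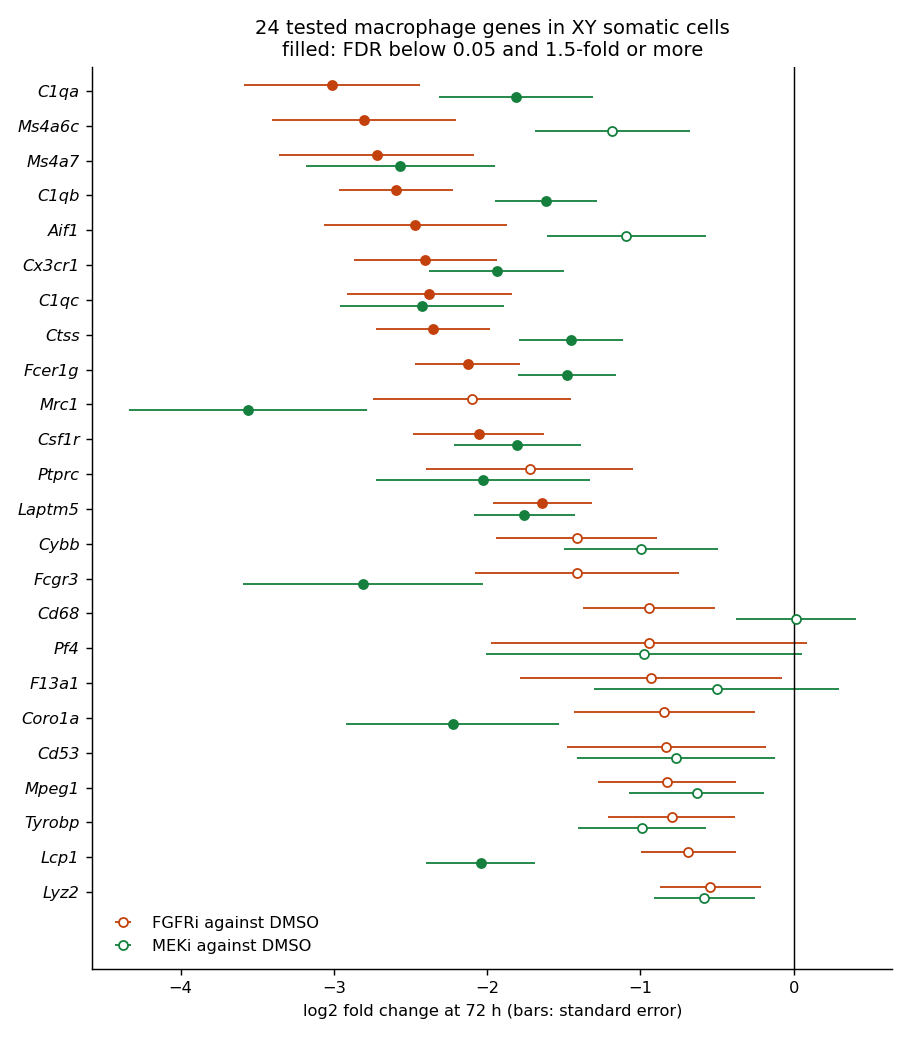
Log2 fold change against XY DMSO at 72 h, with its SE as bars (horizontal axis), of the 24 tested macrophage genes with FGFRi and with MEKi; filled points are called genes. The 11 genes called with FGFRi lie between -3.01 and -1.64 and the 14 called with MEKi between -3.56 and -1.45, and only Cd68 with MEKi lies above 0.

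Of the genes called with MEKi and not with FGFRi, Lcp1, which encodes the leukocyte actin-bundling protein L-plastin, was at 15.0, 30.3, 15.0 and 7.14 CPM with DMSO, at 8.64, 12.2, 11.1 and 9.23 CPM with FGFRi and at 5.21, 4.20, 3.14 and 3.77 CPM with MEKi. The MEKi libraries lay below all others of 72 h, and the FGFRi libraries overlapped with DMSO library M6. The log2 fold change was -2.04 with MEKi (SE 0.354, adjusted p = 6.29e-05) and -0.69 with FGFRi (SE 0.309, adjusted p = 0.277). Mrc1, the macrophage mannose receptor, was at 4.33, 9.94, 6.48 and 1.43 CPM with DMSO, at 0, 0.810, 3.58 and 0 CPM with FGFRi and at 0 to 0.948 CPM with MEKi, where 4 counts in all remained. It was called with MEKi (log2 fold change -3.56, SE 0.777, adjusted p = 0.00145) and missed the limit with FGFRi (-2.10, SE 0.644, adjusted p = 0.0651).

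Fcgr3, a low-affinity IgG receptor, Ptprc, the general leukocyte antigen CD45, and Coro1a, an actin regulator of leukocytes, were the other genes called with MEKi and not with FGFRi, and they rested on low counts. Their log2 fold changes were -2.81 (SE 0.783, adjusted p = 0.0133), -2.03 (SE 0.699, adjusted p = 0.0489) and -2.23 (SE 0.692, adjusted p = 0.0278). Fcgr3 and Ptprc overlapped between the groups through DMSO library M6. The call of Fcgr3 was lost without MEKi library M3 (adjusted p = 0.0562). That of Ptprc was lost without any one of DMSO libraries M2, M4 and M5 or MEKi libraries M3, M4 and M5 (up to 0.166), and that of Coro1a without DMSO library M2 or M4 or MEKi library M3 or M4 (up to 0.109).

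Some of these genes entered the test only because of the groups in which they were high. Ms4a7, Ptprc, Fcgr3, Cd53 and Coro1a would not have passed the filter, 4.45 CPM in 4 libraries, without the XY DMSO libraries of 72 h, so that a lower value with an inhibitor was favoured for them, and the counts of called genes are a description. Leaving out single libraries gave 9 (without DMSO library M4) to 13 (without M6) called genes with FGFRi and 11 to 15, through the same libraries, with MEKi. Without both low DMSO libraries of 72 h, M6 and F11, 13 and 15 of the 26 genes then tested were called, which included all 11 and all 14. M6 was left out because its sum of these genes was the lowest of its group, so lower calls with an inhibitor were favoured in that fit.

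The calls at 72 h depended on the tool. DESeq2 called 12 genes with FGFRi and 13 with MEKi, and a test against a 1.5-fold change (glmTreat) called 4 and 7, the 4 being C1qa, C1qb, Fcer1g and Ctss. A fit of only the groups compared, in which fewer genes passed the filter, called 7 and 9. The voom method with quality weights and treat, which the study's methods use, called 0 with either inhibitor, although 13 of the 24 had an unadjusted p under 0.05 in each case, and it called no gene at all in the FGFRi comparison.

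Between the inhibitors at 72 h, 1 of the 24 was called lower with MEKi, a share no larger than the 4.69% of all genes tested. It was Lcp1 (log2 fold change -1.35, SE 0.372, adjusted p = 0.0118), and no library overlapped, as in 7.74% of all genes tested. In the same comparison 8 of 8 tested neutrophil genes were called lower with MEKi (median -2.34), and their part in the Lcp1 values was not tested. DESeq2 also called 1 gene, and glmTreat and voom 0. Over all 24, Lcp1 included, the median log2 difference was 0.17, and 6 had an unadjusted p under 0.05, 5 of them higher with MEKi. Among the 5, Ms4a6c was higher with MEKi by 1.62 (SE 0.652, adjusted p = 0.11), C1qb by 0.98 (SE 0.417, adjusted p = 0.135) and Ctss by 0.90 (SE 0.406, adjusted p = 0.161). The others were Aif1, by 1.38 (SE 0.645, adjusted p = 0.181), and Cd68, by 0.96 (SE 0.426, adjusted p = 0.155). In these last 2, every MEKi library lay above every FGFRi library, and the share of all genes tested that did so was not computed. The intervals of these differences are wide, and a missed limit does not show that the inhibitors acted alike.

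Promoters are shown for the C1q genes, Fcer1g and Ctss, since these fell with both inhibitors and the neighbouring C1q genes moved together. Each runs from 250 bases before to 50 bases after the start of the canonical transcript (GRCm39, GENCODE), is read on the strand of the gene, and has in capitals each match to GAGGAA, the core that the myeloid factor PU.1 recognises, or to its reverse complement TTCCTC. The locations are chr4:136626112-136626411 on the minus strand for C1qa, chr4:136613462-136613761 minus for C1qb, chr4:136620327-136620626 minus for C1qc, chr1:171062170-171062469 minus for Fcer1g and chr3:95433839-95434138 plus for Ctss.
C1qa: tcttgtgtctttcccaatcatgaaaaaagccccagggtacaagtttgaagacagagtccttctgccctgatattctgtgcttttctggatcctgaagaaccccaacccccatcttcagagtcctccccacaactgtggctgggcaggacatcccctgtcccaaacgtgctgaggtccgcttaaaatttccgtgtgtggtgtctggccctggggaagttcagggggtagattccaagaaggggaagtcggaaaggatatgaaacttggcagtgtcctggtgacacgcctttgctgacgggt
C1qb: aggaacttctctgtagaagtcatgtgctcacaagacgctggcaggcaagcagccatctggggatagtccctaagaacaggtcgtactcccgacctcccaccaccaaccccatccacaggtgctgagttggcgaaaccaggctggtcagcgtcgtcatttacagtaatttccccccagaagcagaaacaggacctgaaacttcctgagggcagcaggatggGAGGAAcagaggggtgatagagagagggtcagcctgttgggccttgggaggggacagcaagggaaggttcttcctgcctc
C1qc: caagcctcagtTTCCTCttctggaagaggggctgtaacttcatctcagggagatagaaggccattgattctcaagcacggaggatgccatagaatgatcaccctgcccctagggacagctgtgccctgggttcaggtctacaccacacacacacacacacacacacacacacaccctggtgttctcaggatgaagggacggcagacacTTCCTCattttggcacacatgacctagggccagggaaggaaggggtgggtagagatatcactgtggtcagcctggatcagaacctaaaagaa
Fcer1g: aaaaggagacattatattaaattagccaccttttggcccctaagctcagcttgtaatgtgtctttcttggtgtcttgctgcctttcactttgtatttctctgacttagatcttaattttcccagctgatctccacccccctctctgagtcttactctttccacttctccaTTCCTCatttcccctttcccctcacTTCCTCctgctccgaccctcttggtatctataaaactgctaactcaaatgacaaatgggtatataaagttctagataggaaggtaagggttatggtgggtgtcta
Ctss: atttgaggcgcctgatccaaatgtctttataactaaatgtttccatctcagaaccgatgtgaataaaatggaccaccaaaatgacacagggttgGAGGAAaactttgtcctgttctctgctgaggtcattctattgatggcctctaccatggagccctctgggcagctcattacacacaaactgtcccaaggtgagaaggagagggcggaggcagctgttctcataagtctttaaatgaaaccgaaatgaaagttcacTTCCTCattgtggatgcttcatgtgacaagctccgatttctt

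C1qa held no match in this window, C1qb 1 match, and C1qc, Fcer1g and Ctss 2 each. The core was present in 18 of 33 macrophage gene promoters (54.5%), in 6 of the 9 genes called lower with both inhibitors (66.7%), and in 5534 of 20254 promoters of protein-coding genes in the table (27.3%). The C/EBP letters TTGCNNAA occurred in 6 of the 33 (18.2%, against 10.5% of all), the AP-1 letters TGANTCA in 4 (12.1%, against 6.79%) and the composite of PU.1 with an IRF (GGAA, any 2 bases, GAAA), which overlaps GAGGAA where the letters GA come before it, in 3 (9.09%, against 2.95%), with both strands searched in each case. None of these 3 was in a promoter of the 9. A match describes letters and not binding, and the assay, which reads the 3′ ends of transcripts, did not measure start sites. Spi1, which encodes PU.1, was itself at 0 to 5.13 CPM over the 40 libraries and was not tested, with a mean of 2.37 CPM in XY DMSO at 72 h, 0.845 CPM with FGFRi and 1.26 CPM with MEKi.

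Genes of other cell types were read in the same comparisons. Of 10 tested endothelial genes, among them Pecam1, Tie1 and Plvap, 0 were called with FGFRi at 72 h (median -0.53) and 8 were called lower with MEKi (median -1.90), led by Tie1 (log2 fold change -5.69) and Plvap (-3.64). The summed endothelial level was 132 CPM with DMSO, 102 CPM with FGFRi and 55.5 CPM with MEKi. With MEKi, 14 of 24 macrophage and 8 of 10 endothelial genes were thus called lower, and the part of one in the other was not tested. The 14 include Ms4a7, Ptprc, Fcgr3 and Coro1a, which needed the XY DMSO libraries of 72 h to pass the filter. Among Sertoli genes, 4 of 8 were called lower and 1 higher with MEKi (median -0.83), and among foetal Leydig genes 3 of 4 were called higher (median 1.11). Among neutrophil genes, 2 of 8 were called lower with MEKi (median -1.36). With FGFRi, 0 of 8 neutrophil genes had an estimate below 0 (median 1.00, 0 called, 5 with an unadjusted p under 0.05). Sertoli genes (median 0.51) and foetal Leydig genes (median 0.68) each had 1 called higher with FGFRi. The part of these cell types was not tested either. Of 14 lysosomal genes that most cells use, 0 were called with either inhibitor (medians 0.19 and 0.24), and of 11 myeloid transcription factor genes also 0 (0.06 and 0.24). Without M6 and F11, endothelial genes had the same counts of 0 and 8 called lower, neutrophil genes had 4 called lower with MEKi, and Sertoli genes 5. With FGFRi, neutrophil genes then had a median of 0.74 and 0 called, and foetal Leydig genes had 0 called.

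Among 18 further tested macrophage genes outside the 33, 2 were called lower with FGFRi and 4 with MEKi, with medians of -0.35 and -0.59. C3ar1, the receptor of the complement fragment C3a, was called with both, at a log2 fold change of -1.64 with FGFRi (SE 0.446, adjusted p = 0.0313) and -1.75 with MEKi. Cyth4 was the other with FGFRi (-2.63, SE 0.713, adjusted p = 0.0313). With MEKi the others were Ncf1 (-1.95) and Ncf4 (-2.33), cytosolic parts of the phagocyte oxidase, and Unc93b1 (-0.82), which carries Toll-like receptors to endosomes. Of 12 genes of engulfment, Dock2 (-5.36), Elmo1 (-2.23) and Stab1 (-1.89) were called lower with MEKi, Dock2 and Elmo1 encoding partners in Rac activation, and Abca1 was called higher with FGFRi (0.64). Without M6 and F11 all of these were called again, and Cyth4 was also called with MEKi (-1.99, adjusted p = 0.0206) and Stab1 with FGFRi (-1.80, adjusted p = 0.0149).

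**Figure D4:**
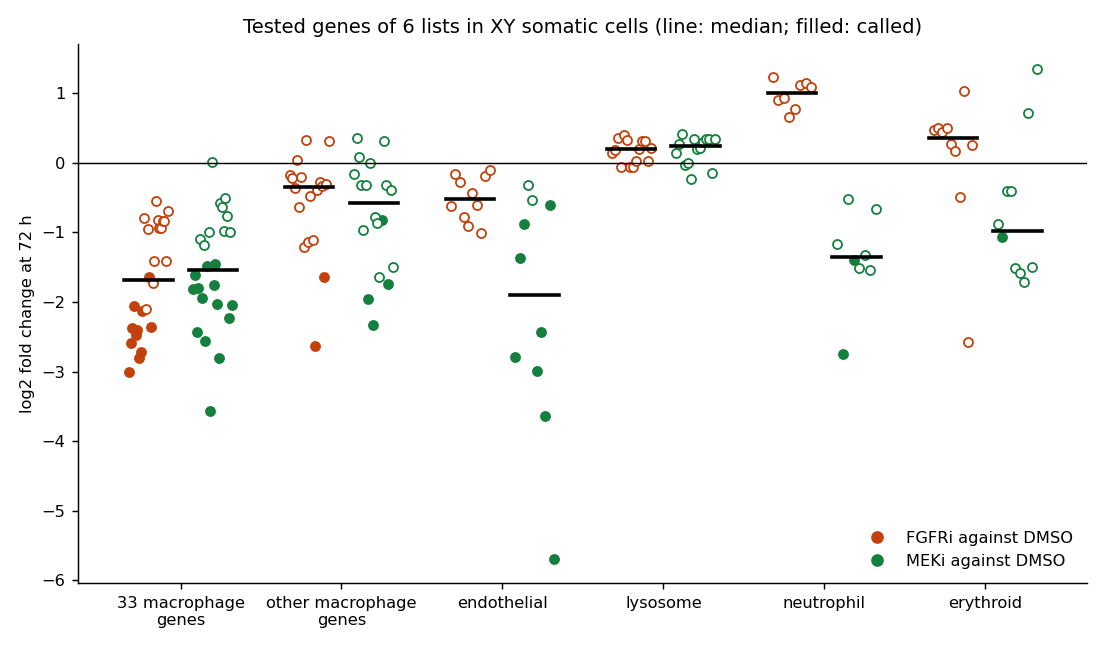
Log2 fold change at 72 h with FGFRi and with MEKi against XY DMSO for the tested genes of 6 lists (horizontal axis), 1 point per gene, with the median as a line; filled points are called genes. The medians of the 24 macrophage genes are -1.68 and -1.55, those of the 10 endothelial genes -0.53 and -1.90, and those of the 14 lysosomal genes 0.19 and 0.24.

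The ligands of the CSF1 receptor were called with neither inhibitor at 72 h. Csf1 was at 20.9 to 21.9 CPM in XY DMSO cells at 72 h, at 15.4 to 22.2 CPM with FGFRi (log2 fold change -0.18, SE 0.257, adjusted p = 0.831) and at 17.3 to 22.3 CPM with MEKi (-0.08, SE 0.255, adjusted p = 0.868). Il34 was at 0.952 to 2.98 CPM with DMSO, and its log2 fold change was 0.58 with FGFRi (adjusted p = 0.735) and -1.21 with MEKi (adjusted p = 0.295). Cx3cl1, which encodes the ligand of CX3CR1, was called lower with MEKi (-1.02, SE 0.263, adjusted p = 0.00706). None of these ligand calls changed without M6 and F11.

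These ligands were also expressed differently in XX and XY cells. Csf1 was lower in XX than in XY at 72 h, at 2.95 to 9.24 CPM against 20.9 to 21.9 CPM (log2 fold change -1.77, SE 0.294, adjusted p = 3.09e-06), and lower in uncultured XX cells (-1.25, adjusted p = 0.0327), but was not called at 24 h (-0.59, SE 0.295, adjusted p = 0.143). Il34 went the other way, higher in XX than in XY before culture (2.48, adjusted p = 0.0117), at 24 h (2.16, adjusted p = 0.00107) and at 72 h (1.76, adjusted p = 0.0116). Without M6 and F11, Csf1 was called again at 72 h (-1.73, adjusted p = 9.88e-05) and Il34 was not (1.47, adjusted p = 0.0848).

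At 24 h with MEKi, 2 of the 24 were called lower and 0 higher, where 1.98% of all genes tested were called lower. C1qc was at 12.1, 6.71, 7.28 and 2.72 CPM with DMSO and at 1.47, 0, 2.40 and 0.912 CPM with MEKi, wholly below, as were 4.77% of all genes tested. Its log2 fold change was -2.38 (SE 0.596, adjusted p = 0.00949). Lcp1 was at 12.4 to 20.5 CPM with DMSO and at 4.10 to 9.30 CPM with MEKi (-1.31, SE 0.324, adjusted p = 0.0083), and its call was lost without MEKi library M6 (adjusted p = 0.0622), which leaves 1 called gene. Of the 24, 12 had an unadjusted p under 0.05, the median was -1.27, and 31 of 33 group means were lower, with Cd14 above. Both genes were also called without library M2, the one placed by its name. All 10 tested endothelial genes were called lower at 24 h with MEKi, and their sum was 73.4 CPM against 276 CPM with DMSO. DESeq2 called 4 of the 24 macrophage genes, and glmTreat and voom 0.

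The difference between the MEKi effect at 72 h and that at 24 h was tested in edgeR as an interaction, which called none of the 24 genes (0 called, 0 with an unadjusted p under 0.05, DESeq2 0 as well, where 1.41% of all genes tested were called either way). The median difference was -0.33 on the log2 scale. Without M6 and F11 0 were called again, but 5 of the 26 genes then tested had an unadjusted p under 0.05, and the median was -0.49.

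FGFRi at 24 h could be set only against DMSO libraries of the other sequencing pool, so the inhibitor and the pool cannot be told apart in these values. There, 4 of the 24 were called lower and 0 higher, where 1.59% of all genes tested were called lower: C1qb (log2 fold change -1.61, SE 0.447, adjusted p = 0.0208), C1qc (-3.46, SE 0.705, adjusted p = 0.00109), Fcer1g (-1.26, SE 0.386, adjusted p = 0.0422) and Lcp1 (-1.06, SE 0.318, adjusted p = 0.0376). C1qc held 0 to 2 counts in each FGFRi library against 7 to 38 with DMSO. The median was -1.23, and 32 of 33 group means were lower. The count was 1 without DMSO library M2 and 2 without any one of DMSO libraries M3 and M4 or the 4 FGFRi libraries, M1, M3, M4 and M5, and voom called 0. Of the endothelial genes 1 of 10 was called (Emcn, -0.99), and their sum was 238 CPM.

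Some of the macrophage genes were lower after the first day of culture. The counts that follow include Pf4 and F13a1, which passed the filter only through the uncultured groups. In XX cells, 7 of the 24 were called lower after 24 h with DMSO than in uncultured cells and 0 higher, where 2.27% of all genes tested were called lower. In XY cells 4 were called lower and 0 higher, where 5.5% were called lower. The medians were -0.995 in XX and -0.34 in XY.

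Pf4, the platelet factor 4 chemokine, which foetal macrophages and megakaryocytes express, fell in both sexes. In XX it went from 2.99, 2.65, 13.2 and 6.03 CPM to 0, 0.743, 0 and 1.58 CPM (log2 fold change -3.15, SE 0.772, adjusted p = 0.00317), and in XY from 2.85 to 6.52 CPM to at most 1.17 CPM (-2.62, SE 0.723, adjusted p = 0.00553). F13a1, the A subunit of coagulation factor XIII, fell from 4.15 to 6.97 CPM to at most 1.45 CPM in XX (-2.99, SE 0.723, adjusted p = 0.00282) and from 3.48 to 6.26 CPM to at most 2.24 CPM in XY (-2.005, SE 0.643, adjusted p = 0.0177). Neither gene overlapped between uncultured and 24 h libraries in either sex, where 5.8% of all genes tested in XX and 10.6% in XY lay wholly below. Both passed the filter only through the uncultured groups, so a fall in culture was favoured for them. At 72 h, in the other sequencing pool, the group means of Pf4 were 0.509 to 1.12 CPM and those of F13a1 0.490 to 1.37 CPM. Neither was back at its uncultured level, but time and pool cannot be told apart there.

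C1qb fell in both sexes as well, from 7.92 to 16.8 CPM to 3.16 to 6.29 CPM in XX (log2 fold change -1.45, SE 0.365, adjusted p = 0.00436) and from 12.9 to 19.9 CPM to 3.89 to 9.63 CPM in XY (-1.12, SE 0.330, adjusted p = 0.00978). Cx3cr1 fell by 1.64 on the log2 scale in XX (SE 0.490, adjusted p = 0.0186) and by 1.09 in XY (SE 0.409, adjusted p = 0.0457), with libraries that overlapped in both. Mrc1 was called in XX, from 7.26, 10.6, 9.30 and 12.4 CPM to 1.75, 0.495, 0.484 and 2.77 CPM (-2.85, SE 0.588, adjusted p = 0.000392), and in XY its log2 fold change was -0.95 (SE 0.535, adjusted p = 0.206). Aif1 (-1.99, SE 0.637, adjusted p = 0.0309) and Fcer1g (-1.04, SE 0.363, adjusted p = 0.0498) were also called in XX. Of 8 fits that each left out 1 library, 5 lost the call of Aif1 (adjusted p up to 0.0859) and 6 that of Fcer1g (up to 0.15). That of Cx3cr1 was lost in 3 fits in XX (up to 0.0933) and 5 in XY (up to 0.224), and that of F13a1 in XY in 3 (up to 0.0663). C1qb in both sexes and Mrc1 in XX kept it in all 8.

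Whether the first day of culture acted differently on XX and XY cells was tested by an interaction, which called 0 of the 24 (where 6.2% of all genes tested were called either way). The gene with the lowest p was Mrc1 (difference -1.90 on the log2 scale, SE 0.806, adjusted p = 0.172), the 1 gene with an unadjusted p under 0.05, and DESeq2 also called 0. In XX, 4 genes were called without uncultured library F3 and 2 by voom (Mrc1 and F13a1). In XY, 2 were called without uncultured library M3 or DMSO library M4 or M5, and 0 by voom. Erythroid transcripts fell on the same day, 10 of 10 tested genes in each sex, with medians of -3.53 in XX and -2.01 in XY, and their part in the macrophage values was not tested.

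**Figure D5:**
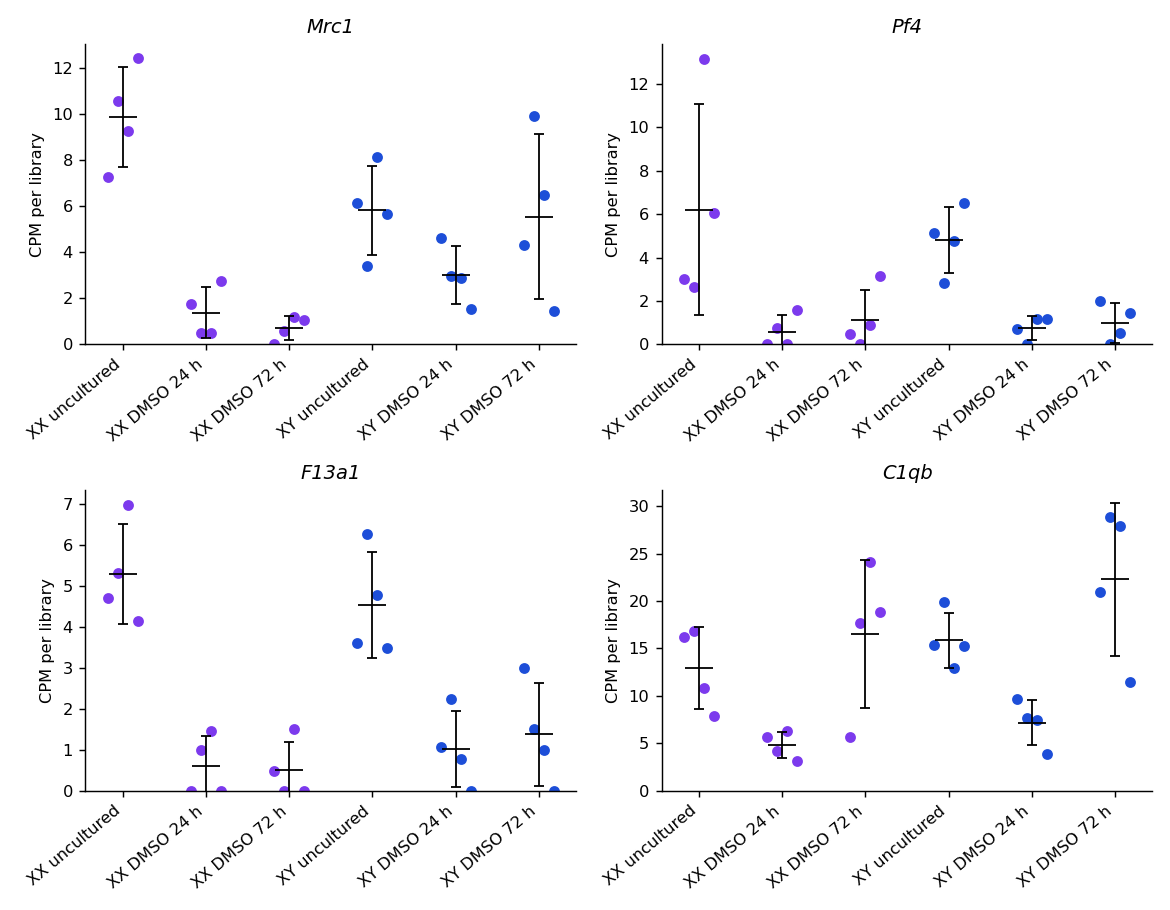
CPM in each library (points) of uncultured cells and of cells cultured with DMSO for 24 h or 72 h, in XX and XY, for Mrc1, Pf4, F13a1 and C1qb, with lines and bars for the mean and SD of 4 libraries. Pf4 is at 2.65 to 13.2 CPM in uncultured XX cells and at most at 1.58 CPM after 24 h, and Mrc1 is at 7.26 to 12.4 CPM and at most at 2.77 CPM. The 72 h libraries were in the other sequencing pool.

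Between 24 h and 72 h only FGFRi was sequenced in 1 pool. There, Lyz2, the lysozyme of myeloid cells, was the 1 gene of 24 called, and it was higher, where 4.38% of all genes tested were called higher. It was at 10.1, 5.95, 5.92 and 6.12 CPM at 24 h and at 40.3, 43.8, 26.1 and 60.4 CPM at 72 h, without overlap (log2 fold change 2.59, SE 0.431, adjusted p = 1.66e-05). Tyrobp was next, at 1.75 to 3.65 CPM and 4.19 to 12.7 CPM (1.42, SE 0.520, adjusted p = 0.0811), and DESeq2 called it too. The C1q genes, at means of 0.991, 2.34 and 0.585 CPM at 24 h and 1.14, 3.65 and 1.91 CPM at 72 h for C1qa, C1qb and C1qc, were not called.

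Lyz2 was at most at 15.4 CPM in any library up to 24 h and at 15.0 to 101 CPM in XX DMSO, 30.5 to 97.4 CPM in XY DMSO and 24.8 to 55.5 CPM in MEKi libraries of 72 h, levels set here across pools. At 72 h it was called with neither inhibitor (FGFRi -0.54, SE 0.327, adjusted p = 0.472; MEKi -0.58, SE 0.328, adjusted p = 0.254). A list of neutrophil genes was also highest then, with summed means of at most 34.6 CPM up to 24 h and of 322 CPM in XX DMSO, 180 CPM in XY DMSO, 340 CPM with FGFRi and 71.6 CPM with MEKi, and their part in the Lyz2 values was not tested. Reads of Lyz2 may be shared in part with its close copy Lyz1.

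XX and XY cells were compared at each time to ask whether the sexes differed. In uncultured cells, 0 of 24 macrophage genes were called by edgeR, 0 had an unadjusted p under 0.05 and DESeq2 called 0, where 9.32% of all genes tested were called lower in XX. The median was -0.23, and the lowest p belonged to C1qc (log2 fold change -0.84, SE 0.458, adjusted p = 0.203).

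At 24 h with DMSO, 4 were called lower in XX and 0 higher, where 10.3% of all genes tested were called lower, with a median of -0.85. Aif1 was at 2.10, 1.98, 0.484 and 0.791 CPM in XX and at 9.27, 5.97, 3.06 and 3.11 CPM in XY, without overlap (log2 fold change -1.83, SE 0.613, adjusted p = 0.0202). Of all genes tested, 12.8% lay wholly below in XX. Cybb, the catalytic subunit of the phagocyte oxidase, was at 0.967 to 2.10 CPM and 3.11 to 7.70 CPM (-1.71, SE 0.582, adjusted p = 0.0221). Lcp1 was at 6.29 to 11.5 CPM and 12.4 to 20.5 CPM (-0.89, SE 0.297, adjusted p = 0.0196), and Laptm5, whose groups overlapped, was the last (-0.85, SE 0.328, adjusted p = 0.0463). Without XX library F6 0 were called, without XX library F9 or XY library M3 2 were, and without XY library M5 7 were. DESeq2 called 6, glmTreat and voom 0. In the same comparison, 8 of 10 erythroid genes (median -1.99) and 8 of 10 endothelial genes (median -0.89) were called lower in XX, and their part in the macrophage values was not tested.

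At 72 h with DMSO, Mrc1 was the 1 gene called, lower in XX, where 10.8% of all genes tested were called lower, and the median was -0.44. It was at 0, 0.591, 1.19 and 1.04 CPM in XX and at 4.33, 9.94, 6.48 and 1.43 CPM in XY, without overlap, as 13.6% of all genes tested lay wholly below in XX (log2 fold change -2.77, SE 0.710, adjusted p = 0.00193). Without the low libraries M6 and F11 it was still the 1 gene called; without XX library F7 3 genes were called and without XY library M6 2. DESeq2 and glmTreat also called 1 gene and voom 0. In fits restricted to these groups or to their pool, Mrc1 did not pass the filter and 0 were called. The change of the difference from 24 h to 72 h was called in 0 of 24, with 0 at an unadjusted p under 0.05 and 0 by DESeq2 (2.04% of all genes tested were called either way). Without M6 and F11 0 were called, with 1 of 26 at an unadjusted p under 0.05.

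The 9 genes that were not tested had at most 26 counts in a library. Cd163, a scavenger receptor of resident macrophages, had 0 counts in all 40 libraries. Adgre1, which encodes the marker F4/80, had 0 to 15 counts, and its means ran from 0 CPM in FGFRi at 24 h to 3.47 CPM in XX DMSO at 72 h. Trem2, a lipid-sensing receptor, had up to 26 counts and was highest in XY DMSO at 72 h, at 3.88 CPM on average, against 1.00 CPM with FGFRi and 1.83 CPM with MEKi. Ly86, a partner of a Toll-like receptor homologue, was at 2.38 to 7.98 CPM in XY DMSO, 0 to 2.10 CPM with FGFRi and 0 to 0.474 CPM with MEKi at 72 h, without overlap. Cd14, the lipopolysaccharide co-receptor, was at 4.28 to 6.46 CPM, 1.79 to 4.03 CPM and 1.91 to 5.39 CPM in the same groups. Ccr2 and Itgam, markers of monocytes, and Lyve1, a marker of perivascular macrophages and lymphatic vessels, averaged at most 2.56 CPM in any group. Summed over the 9, XY cells at 72 h held 12.9 to 32.99 CPM with DMSO and on average 9.27 CPM with FGFRi and 10.98 CPM with MEKi.

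Of the tested genes not yet described, Mpeg1, the pore-forming perforin 2, was at 5.24 to 13.4 CPM in XY DMSO, 3.58 to 7.29 CPM with FGFRi and 5.02 to 6.63 CPM with MEKi at 72 h, and was called in no comparison. Cd68, a lysosomal glycoprotein, was at 1.43 to 12.4 CPM, 2.10 to 4.65 CPM and 5.02 to 9.17 CPM, and was not called either. Cd53, a leukocyte tetraspanin, was at most at 6.33 CPM in any library.

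Likeness between the macrophage genes was read from library to library within groups. Over the 40 libraries, with the group means removed, the 276 pairs of the 24 tested genes had a mean Pearson r of 0.29 on log2 CPM, and 253 of the pairs lay above 0, which is a description, since the libraries share depth and low counts weaken every r. The DMSO libraries F11 and M6 of 72 h deviated most from their groups, by -1.04 and -0.98 on average over the 24 genes. They weigh on these values and on those that follow, which were not computed without them. Lyz2 (0.72), Laptm5 (0.69) and Ctss (0.67) followed the mean of the other members best, and Pf4 did not follow it (-0.11). Of 15101 other genes, whose median r with the mean of the 24 was 0.00, the ones most like it were Cd52 (0.78), Cyth4 (0.74), Apoe (0.71), Ncf4 (0.67) and Rtl3 (0.67).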

How the data were processed

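Somatic RNA was sequenced from the 3′ end in 40 libraries, 4 in each of 10 groups. The authors deposited whole counts of unique molecular identifiers per gene and library, aligned to GRCm39 and not normalised, and the submitters' processing notes also name limma and edgeR. Symbols were matched through GENCODE M39 for 40391 of 42422 identifiers, which held 99.0% of the counts. Replicates are the labels' separate libraries of pooled gonads, and p-values measure the spread between them. Over 60 pairs within groups, no 2 libraries were copies (chi-square per degree of freedom 1.96 to 8.48).

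Counts were analysed in R 4.3.3 with edgeR 4.0.16. Genes were kept with filterByExpr (15125), scaled by TMM, and fitted with a quasi-likelihood model of 10 group means over 40 libraries, in 14 comparisons, with Benjamini-Hochberg adjustment over all genes tested. Called genes had an adjusted p below 0.05 and a change over 1.5-fold. CPM values use TMM-scaled library sizes, and log2 CPM a prior count of 2. The script was tested on simulated data. Alternatives were RLE scaling, total counts, no filter or 1 CPM in 4 libraries, DESeq2 1.42.0, glmTreat, voom with quality weights and treat (limma 3.58.1), fewer libraries in the fit, a block for the replicate number, and the omission of each library in turn. The 33 genes and all gene lists were chosen with earlier results of these data known. Genes named are the members and, from the lists, called genes and those that ligand and receptor pairs turn on. Promoters were read from the GRCm39 genome; Csf1r and Cd14 were searched for motifs and their sequences are not shown. Germ cell data were not used here.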

Additional observations from a re-analysis of the deposited data

Results flagged for a closer look

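Of 139 sets of 4 libraries examined (levels of the macrophage genes and their sums in each group), 5 had 1 library whose gap to the nearest other was over Dixon's critical share of the group's whole range, where chance alone gives about 1 in 20. The sum of the 32 genes without Lyz2 was 61.9 CPM in XX DMSO library F6 at 24 h, against 77.5 to 79.5 CPM in the other libraries. Csf1r was at 9.09 CPM in XX DMSO library F9 at 24 h, against 4.55 to 5.32 CPM. In XX DMSO library F11 at 72 h, Ms4a6c was at 1.41 CPM, against 6.50 to 7.45 CPM, and Fcgr3 was at 0.470 CPM, or 1 count, against 7.31 to 7.68 CPM. Lyz2 was at 10.1 CPM in XY FGFRi library M1 at 24 h, against 5.92 to 6.12 CPM. Their causes were not tested.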

How the results depend on the processing

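Over the 49 pairs of gene and comparison called, 851 values under alternatives gave 688 with the same call, 163 that missed the threshold and 0 in the other direction; of the 392 that left out a library, 323 kept the call and 69 missed it. The counts of called macrophage genes moved as follows, and where no value shows it the cause was not tested. With FGFRi at 72 h (11 called), glmTreat gave 4, voom 0 and a fit of only the groups compared 7, with fewer genes tested. With MEKi at 72 h (14), these gave 7, 0 and 9. For MEKi against FGFRi (1), glmTreat and voom gave 0. With MEKi at 24 h (2), no filter gave 5, DESeq2 4, glmTreat and voom 0 and only the groups compared 1. With FGFRi at 24 h (4), no filter gave 8, glmTreat 1 and voom 0. For XX against XY at 24 h (4), no filter gave 7 and glmTreat and voom 0. At 72 h (1), voom gave 0, and fits of only the groups compared or of the same pool gave 0, since Mrc1 was not among the genes tested there. For 24 h against uncultured cells, XY (4) had 1 with glmTreat, 0 with voom and 2 with only the groups compared, and XX (7) had 3 with glmTreat and 2 with voom. For FGFRi at 72 h against 24 h (1), no filter and DESeq2 gave 2. The summed level in uncultured XY cells was 182.6 CPM on total counts, against 192.0.

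Leaving out single libraries gave 9 to 13 genes with FGFRi and 11 to 15 with MEKi at 72 h, 1 to 3 with MEKi and 1 to 4 with FGFRi at 24 h, 0 to 7 for XX against XY at 24 h and 1 to 3 at 72 h, and 2 to 5 in XY and 4 to 7 in XX for 24 h against uncultured cells. Leaving out the low 72 h DMSO libraries was chosen after seeing the data, and it favours lower values with the inhibitors.

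Whether the replicate numbers of the labels pair the samples was not settled, and the main fit used no pairing. Same-numbered libraries did not all deviate together, with r down to -0.156 (M5, 24 h DMSO against uncultured, XY). For FGFRi against DMSO at 72 h, r was 0.116, 0.002, 0.084 and 0.058 for M2, M4, M5 and M6. Such values cannot exclude a pairing. With the replicate number as a block, 11 genes were called with FGFRi and 15 with MEKi at 72 h, but 1 for XX against XY at 24 h, which was none of the 4, and 2 of the 7 in XX for 24 h against uncultured cells.

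Many of these genes held under 10 counts in a library, and at this depth a missed threshold does not show that a gene did not differ. Inhibitor and pool cannot be told apart for FGFRi at 24 h, nor time and pool for DMSO and MEKi.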
